A study of Mus musculus with 6 samples.

Results

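Remodelling valve tissue was set against an osteoblast progenitor line, gene by gene. The valve group was the atrioventricular (AV) valve of wild-type FVB/N mouse embryos at embryonic day 17.5 (E17.5), and the cell group was MC3T3-E1 (subclone 4) cells grown in culture, with no treatment named for either. These groups make up 4 of the 6 arrays of the series, 2 each, and the other 2 arrays hold AV cushion of wild-type FVB/N embryos at embryonic day 12.5 (E12.5). Samples were taken by their labels, and 18193 genes with at least 1 probe set of their own on the Affymetrix Mouse Genome 430 2.0 array were compared. The title of the series names the expression profiles that remodelling valves and osteoblast progenitors have in common as its question. Each array carried pooled RNA, the arrays of a group are called biological duplicates, and the sources used here do not give the number of embryos, litters or cultures pooled. MC3T3-E1 is a single established line derived from mouse calvaria, so that tissue against cell line, strain, mixed cells against 1 cell type and life in the embryo against culture cannot be told apart here. Whether the cells had been given ascorbic acid or phosphate, which start matrix assembly and mineralization in this line, the sources used here do not say.

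Late in gestation the AV valve leaflets are thin folds of mesenchyme covered by endocardium, in which a loose matrix rich in hyaluronan and versican is being replaced by layers of collagen, proteoglycan and elastic fibres. Osteoblast progenitors of the skull lay down a type I collagen matrix and, under the transcription factors Runx2 and osterix (Sp7), add the proteins that let it mineralize. Both lineages answer to BMP, TGF-beta and Wnt signals, and adult valves can take on a bone programme when they calcify.

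What was measured was each probe set relative to its median over the 4 valve and cushion arrays, so that 0 on the log2 scale marks the midpoint of the valve and cushion tissue. Such ratios carry no level: 1 transcript cannot be ranked against another, and a small difference can stand for a transcript that both groups share or for one that neither expresses. Ratios were held at a minimum of 0.01 (log2 -6.64), which 90 genes reached on at least 1 probe set, and a fold against it is given as a lower bound. Differences are E17.5 valve minus MC3T3 on the log2 scale with the standard error of limma (± SE, n = 2 arrays a group), and a call needed a 2-fold change with a p under 0.05 after Benjamini-Hochberg adjustment. By this rule 1780 genes were higher in the valve (9.78% of those tested) and 1445 were higher in MC3T3 (7.94%), together 17.7%. At 8-fold or more the numbers were 468 and 130. For 13743 genes (75.5%) the 95% interval of the difference lay inside 2-fold in both directions, and 1225 were neither called nor bounded in this way. The median difference over all genes was -0.15, and list medians below are to be read against it.

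Replicate arrays lay close together, with a median absolute log2 difference of 0.0909 between the E17.5 arrays and 0.0792 between the MC3T3 arrays, and the number of arrays limits the precision (median SE 0.0908). With 2 arrays on each side the smallest p of an exact permutation is 0.333, so the p-values rest on the spread shared over genes and over pools that may differ only technically. Between the E17.5 arrays, 17 of 18 hepatocyte markers, 3 of 13 erythroid markers and 1 of 11 lung epithelium markers stood at least 2-fold higher on replicate 1 than on replicate 2, with hepatocyte list medians of 2.41 and 0.08. In all, 99 genes were 2-fold apart between the E17.5 arrays and 3 between the MC3T3 arrays. Without E17.5 replicate 1 the calls came to 1711 higher in the valve and 1526 higher in MC3T3. As the valve samples are whole tissue, fewer cells of a type and less RNA per cell cannot be told apart.

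Among the 12 genes that stood furthest higher in MC3T3 were Omd and Ibsp of bone matrix, Pappa2 and Fgf7 of growth factor signalling and the transcription factor genes Alx1 and Tfap2b. Omd, the bone proteoglycan osteomodulin, stood at log2 ratios of 0.10 and 0.19 in E17.5 valve against 6.55 and 6.51 in MC3T3. Ibsp, bone sialoprotein, a matrix protein that binds mineral, stood at 0.22 and 0.00 against 5.63 and 5.60. The cell line was high on both arrays, while E17.5 valve lay near 0, the median over valve and cushion arrays to which each probe set was scaled. A value near 0 therefore gives no level in the valve. That the arrays of the groups do not overlap was a condition for picking these genes, and it holds for all 3225 called genes. The share without overlap over all genes is not given here. The differences were -6.39 ± 0.11 for Omd (83.6-fold, adjusted p = 5.53e-09) and -5.51 ± 0.10 for Ibsp (45.4-fold, adjusted p = 7.6e-09). Pappa2, a protease that cleaves carriers of insulin-like growth factors, was 86.6-fold higher in MC3T3 (-6.44 ± 0.09) and Fgf7, a growth factor that mesenchyme sends to epithelium, 81.6-fold (-6.35 ± 0.09). Fst, encoding the activin antagonist follistatin, was 47.5-fold higher (-5.57 ± 0.12), and Clec11a, which encodes a secreted factor that favours bone formation, 41.8-fold (-5.39 ± 0.12). Vit, a matrix protein gene, and Col8a1, a short-chain collagen, differed by -5.76 ± 0.09 and -5.37 ± 0.08. The homeobox gene Alx1, needed for the bones of the face, stood at -5.30 ± 0.09 and Tfap2b, a transcription factor of neural crest, at -5.21 ± 0.08. Efhd1, encoding a calcium-binding mitochondrial protein, and Adh7, an alcohol dehydrogenase that can use retinol, completed the 12 largest, at -6.07 ± 0.22 and -5.24 ± 0.07.

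**Figure D1:**
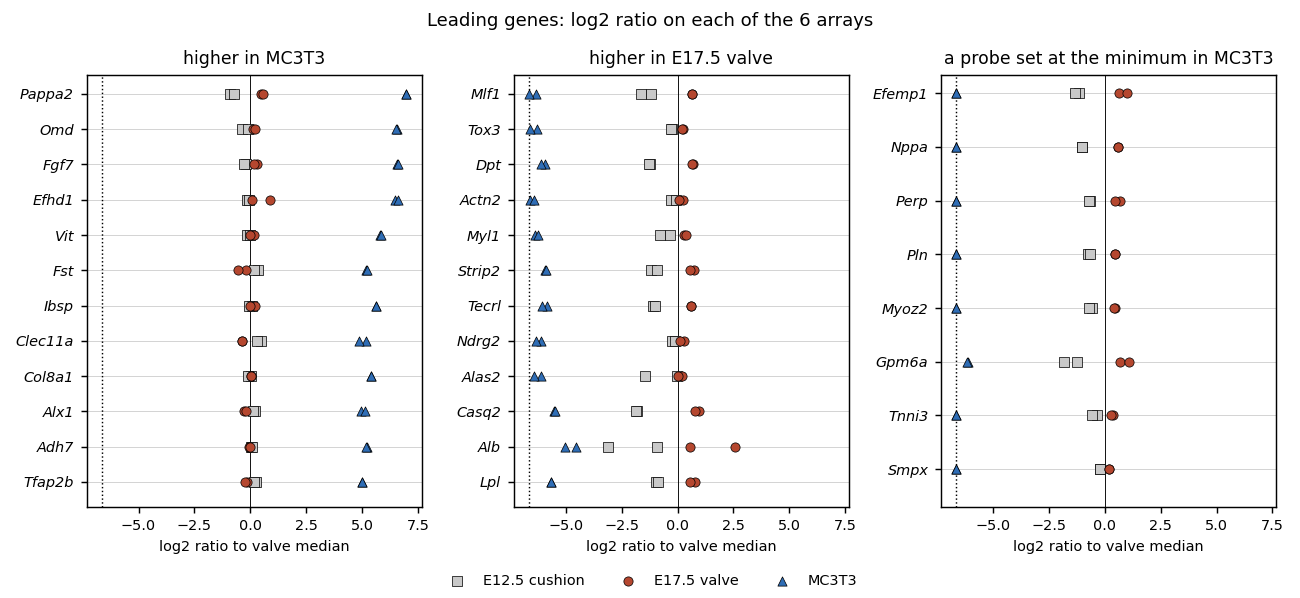
Log2 ratio to the median of the 4 valve and cushion arrays (x axis) on each of the 6 arrays. Shown are the 12 largest called differences in each direction among genes with no value at the minimum. Beside them are the 8 genes with the highest lower bounds among those with a probe set at the minimum on both MC3T3 arrays. Grey squares are E12.5 cushion, red circles E17.5 valve, blue triangles MC3T3, and the dotted line is the minimum of -6.64. That E17.5 and MC3T3 arrays do not overlap was a condition for picking the 12 in each direction. It holds for all 3225 called genes. Alb has E17.5 arrays at 2.57 and 0.55.

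Among genes with no value at the minimum, Mlf1 had the largest difference on the valve side. The 12 furthest higher of these included 4 of muscle, Actn2, Myl1, Casq2 and Tecrl. Mlf1, a gene first found at a leukaemia translocation in humans, stood at 0.65 and 0.66 in E17.5 valve against -6.33 and -6.64 in MC3T3, a difference of 7.14 ± 0.16 (adjusted p = 1.91e-08). Its MC3T3 replicate 2 value equals the minimum once rounded, so its difference and rank may be limited by the minimum. Actn2 lay near the minimum too, at -6.585 and -6.439 in MC3T3. Dpt, dermatopontin, a matrix protein that binds decorin and collagen, stood at 0.68 and 0.65 against -5.93 and -6.11. Its difference was 6.68 ± 0.09, or 103-fold (adjusted p = 2.87e-09). The muscle genes were Actn2, alpha-actinin of the sarcomere (6.66 ± 0.11), Myl1, a myosin light chain (6.64 ± 0.14), Casq2, the calcium store protein of cardiac muscle (6.35 ± 0.09), and Tecrl, which is linked to cardiac calcium handling in humans (6.57 ± 0.10). Lpl, lipoprotein lipase, was 79.6-fold higher in the valve (6.32 ± 0.10), Ndrg2 84.6-fold, Strip2 95.7-fold and Tox3, an HMG-box nuclear protein gene, 103-fold. Alas2, the first enzyme of haem synthesis in red cells, was 83-fold higher and Alb, albumin, 81-fold (6.34 ± 0.78). Without E17.5 replicate 1 the Alb difference was 5.33, and under an equal-variance test over the 3 groups its adjusted p = 0.054. That test, here and below, asks for any difference among the 3 groups, E12.5 cushion included. It is not specific to E17.5 valve against MC3T3. With a probe set at the minimum on both MC3T3 arrays, and therefore known only as bounds, the 8 highest were Efemp1 (at least 175-fold higher in the valve), Nppa (at least 152-fold), Perp (at least 148-fold), Pln (at least 137-fold), Myoz2 (at least 134-fold), Gpm6a (at least 127-fold), Tnni3 (at least 125-fold) and Smpx (at least 114-fold). Of these Efemp1 is a fibulin of elastic tissue, Perp a desmosomal membrane protein and Gpm6a a neuronal and mesothelial membrane protein, while the other 5 belong to muscle or to the heart.

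Markers of cell types other than valve mesenchyme were high in the E17.5 tissue relative to MC3T3, and they stand beside the results that follow. The 33 cardiomyocyte markers were called higher in the valve (median difference 6.25, 20 of them with a value at the minimum). Their list medians were 0.24 and 0.28 in E17.5 valve against -5.69 and -5.84 in MC3T3. Of 28 endothelial and endocardial markers 25 were higher (median 3.39), among them Emcn (at least 139-fold), the angiopoietin receptor Tek (at least 104-fold), Pecam1 (4.72 ± 0.08) and Vwf (5.10 ± 0.29). The endothelial list stood at 0.10 and 0.20 in E17.5 valve against -3.33 and -3.48 in MC3T3, while 3 members, Flt1 (0.03 ± 0.08) and Cd34 (0.35 ± 0.09) among them, had intervals inside 2-fold. The 14 epicardial and mesothelial markers were called too (median 4.24), with Upk3b (at least 98.6-fold), Bnc1 (5.67 ± 0.16) and Krt18 (5.46 ± 0.17). Of 25 macrophage and leukocyte markers 20 were higher in the valve (median 1.77), led by the cathepsin gene Ctss (5.68 ± 0.41), Lyve1 (5.25 ± 0.18) and Tyrobp (4.36 ± 0.23). Their list medians were 0.03 and 0.03 against -1.71 and -1.60. The master regulator of myeloid cells, Spi1, differed by 0.12 ± 0.11 (adjusted p = 0.397).

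Liver and blood transcripts were less even across arrays. Of 18 hepatocyte markers 14 were higher in the valve and 10 without E17.5 replicate 1, 8 without either MC3T3 array in turn, 5 with a variance trend and robust fit and 1 under the equal-variance test. Ttr, transthyretin, stood at 2.99 and 0.23 in E17.5 valve against -4.09 and -4.08 in MC3T3. Erythroid markers were higher in 8 of 13 and in 5 without E17.5 replicate 1, with list medians of -0.27 and -0.93 against -2.50 and -2.45. Of 11 markers of lung epithelium 3 were called, Scgb3a2 (4.46 ± 0.15), Cdh1 (1.62 ± 0.22) and Scgb3a1, whose 1.00 ± 0.29 lay at the threshold. Scgb3a1 was not called without E17.5 replicate 1 (0.47), without either MC3T3 array or with the trend and robust fit. Under the equal-variance test 1 lung marker was called, and 5 were when probe sets open to cross-hybridization were left out. Smooth muscle markers split, with 6 of 15 higher in the valve and 4 higher in MC3T3. Pln and Ldb3, counted among the 6, are on the cardiomyocyte list as well. The calponin gene Cnn1 (4.22 ± 0.12) and the cofactor gene Myocd (2.68 ± 0.12) were higher in the valve, and Actg2 (-3.12 ± 0.26), Mylk (-2.01 ± 0.11) and Acta2, smooth muscle actin (-1.64 ± 0.10), were higher in MC3T3. Melanocyte and glia markers were higher in the valve in 6 of 13, among them Ednrb (at least 24-fold), Fabp7 (4.25 ± 0.17) and Mitf (2.29 ± 0.14), while S100b was higher in MC3T3 (-2.24 ± 0.10). How much of the other differences comes from such cells was not tested.

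**Figure D2:**
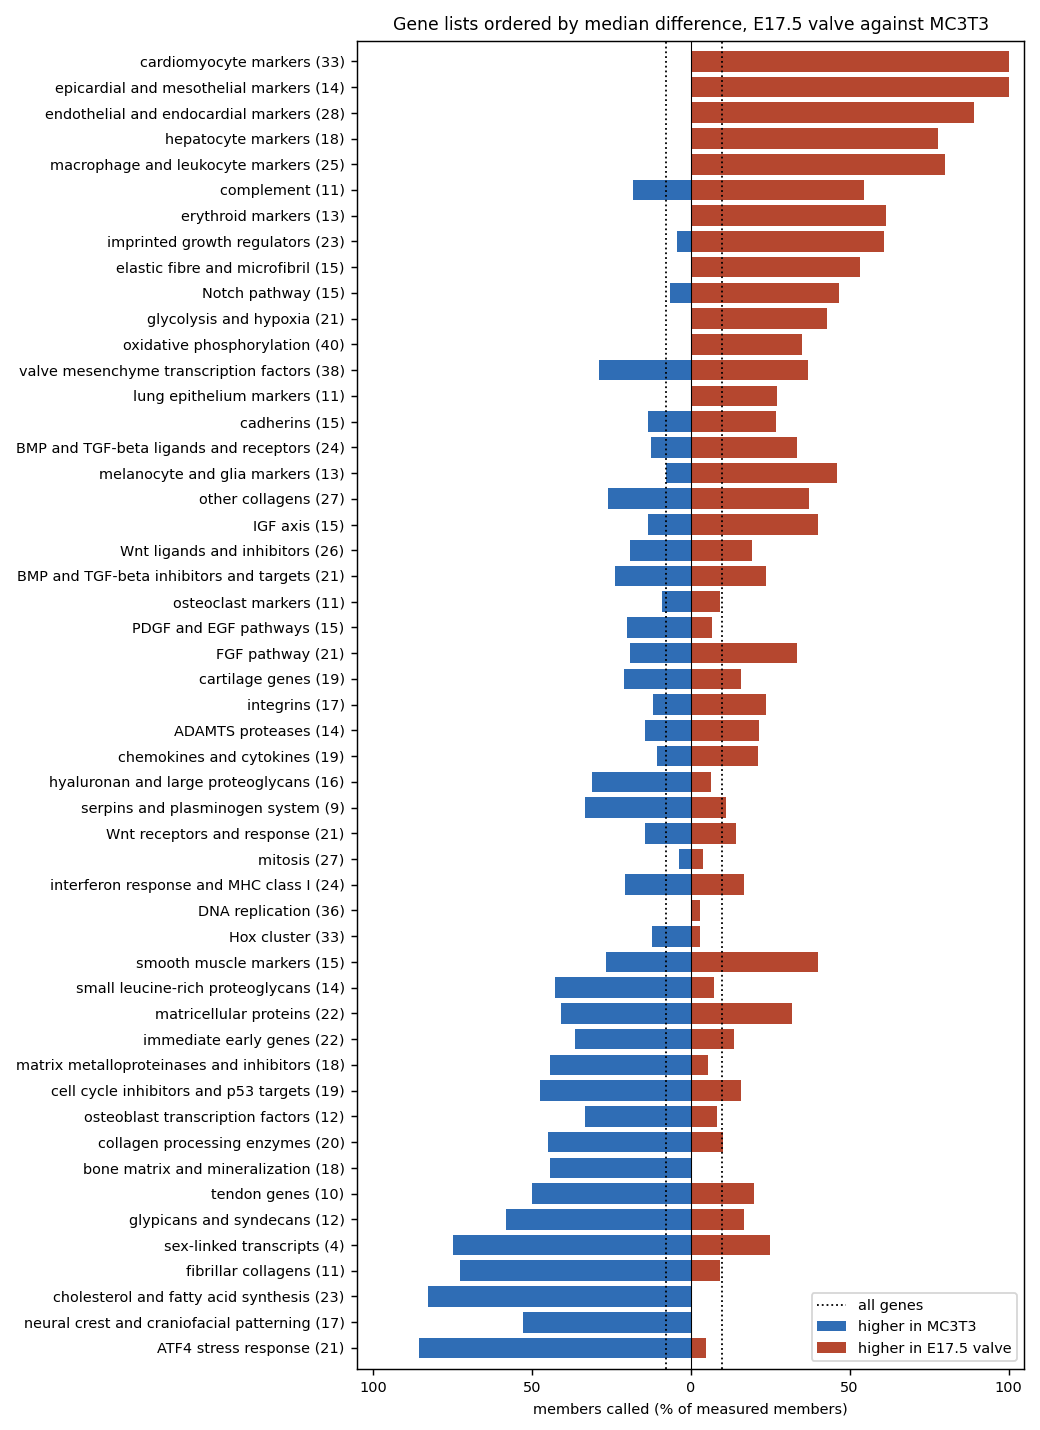
Percent of the measured members of each gene list called higher in MC3T3 (blue, to the left) or in E17.5 valve (red, to the right), ordered by the median difference, with the number of measured members in brackets. Dotted lines mark the shares over all genes, 7.94% and 9.78%, and the ATF4 stress response list at the bottom and the cardiomyocyte markers at the top have the lowest and highest medians, -2.24 and 6.25.

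Of 12 measured osteoblast transcription factors 4 were higher in MC3T3 and 1 in the valve (median difference -0.81). Sp7, osterix, without which no osteoblasts form, stood at -0.15 and -0.08 in E17.5 valve against 4.28 and 4.23 in MC3T3. Dlx5, a homeobox factor upstream of osteoblast genes, stood at 0.07 and -0.09 against 4.57 and 4.66. Both were thus near the median of the valve and cushion arrays in E17.5 tissue, which gives no level. The differences were -4.37 ± 0.08 (20.7-fold, adjusted p = 1.07e-08) for Sp7 and -4.62 ± 0.09 (24.7-fold, adjusted p = 9.79e-09) for Dlx5. Twist1, a basic helix-loop-helix factor of mesenchymal progenitors, stood at -2.12 and -2.25 in E17.5 valve, at 0.53 and 0.64 in MC3T3 and at 0.82 and 0.87 in E12.5 cushion. It was therefore 6.83-fold higher in MC3T3 than at E17.5 (-2.77 ± 0.08), with the line between E17.5 and E12.5 tissue. The related Twist2 was 2.06-fold higher in the valve (1.04 ± 0.11, and 0.99, no longer called, without MC3T3 replicate 2). The Fos family gene Fosl2 was 2.28-fold higher in MC3T3, called on 1 of its 2 probe sets. Msx1 (-0.37 ± 0.08) and Dlx3 (-0.28 ± 0.09) were bounded within 2-fold, and Msx2 (-0.94 ± 0.09) lay just under the threshold, which it passed without E17.5 replicate 1. Runx2 was not analysed here.

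Of 17 genes of neural crest and craniofacial patterning 9 were higher in MC3T3 (median -2.09). Besides Alx1 and Tfap2b these included Dlx2 (-3.27 ± 0.08) and Dlx1 (-3.20 ± 0.10), homeobox genes of the jaw arches. The jaw gene Lhx8 (-0.07 ± 0.13) and the crest gene Sox10 (0.03 ± 0.10) had intervals inside 2-fold. Of 33 Hox genes, which pattern the trunk and limbs, 27 had such intervals, 4 were higher in MC3T3 and 1, Hoxb2, was higher in the valve (1.94 ± 0.15). The shares over all genes were 75.5% bounded, 7.94% higher in MC3T3 and 9.78% higher in the valve. Hoxa10 was 9.14-fold higher in MC3T3 (-3.19 ± 0.14) and Hoxa9 2.81-fold, the latter called on 1 of its 2 probe sets (-2.67 and -0.32). Hoxb9 (-1.06 ± 0.10) and Hoxb13 (-1.04 ± 0.08) lost their calls when each array was centred on its median or without E17.5 replicate 1.

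Transcription factors listed for heart valve mesenchyme divided between the groups. Of 38, 14 were higher in the valve, 11 higher in MC3T3 and 11 bounded within 2-fold (median 0.48). The list also holds factors of heart muscle and epicardium, so its counts are not those of valve mesenchyme alone. Its members Wt1, Tcf21 and Tbx18 are counted among the epicardial markers above as well. Tbx20, a T-box factor of endocardial cushions and myocardium, stood at least 37.1-fold higher in the valve (5.21 ± 0.10). Its values were 0.00 and 0.04 in E17.5 valve against -5.14 and -5.25 in MC3T3, 1 of its 3 probe sets differing by 2.34. Gata6 (3.45 ± 0.09), Gata4 (2.06 ± 0.08), Hand2 (at least 6.35-fold), the ventricular homeobox gene Irx4 (3.66 ± 0.15), the epicardial factor Wt1 (4.15 ± 0.24) and the mesenchymal homeobox gene Meox2 (2.67 ± 0.10) were also higher in the valve. Called were 2 of 3 probe sets of Gata6 (range 0.48 to 5.63), 1 of 2 of Gata4 (0.77 to 3.35) and 2 of 3 of Hand2 (0.40 to 6.31). In the reverse direction stood the paired-type homeobox genes Prrx2 (-3.55 ± 0.08) and Prrx1 (-3.03 ± 0.08), factors of limb and face mesenchyme, and the Iroquois genes Irx5 (-3.06 ± 0.15) and Irx3 (-2.26 ± 0.12). Prrx2 stood at -1.36 and -1.46 in E17.5 valve, at 0.81 and 0.69 in E12.5 cushion and at 2.15 and 2.14 in MC3T3. Sox9, a factor of cushion mesenchyme and cartilage, differed by -0.95 ± 0.08, just inside the 2-fold threshold, and passed it with the median over its probe sets. Nfatc1, which marks valve endocardium and osteoclasts, differed by 0.55 ± 0.08 (1.47-fold), and Hand1 by -0.10 ± 0.11.

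**Figure D3:**
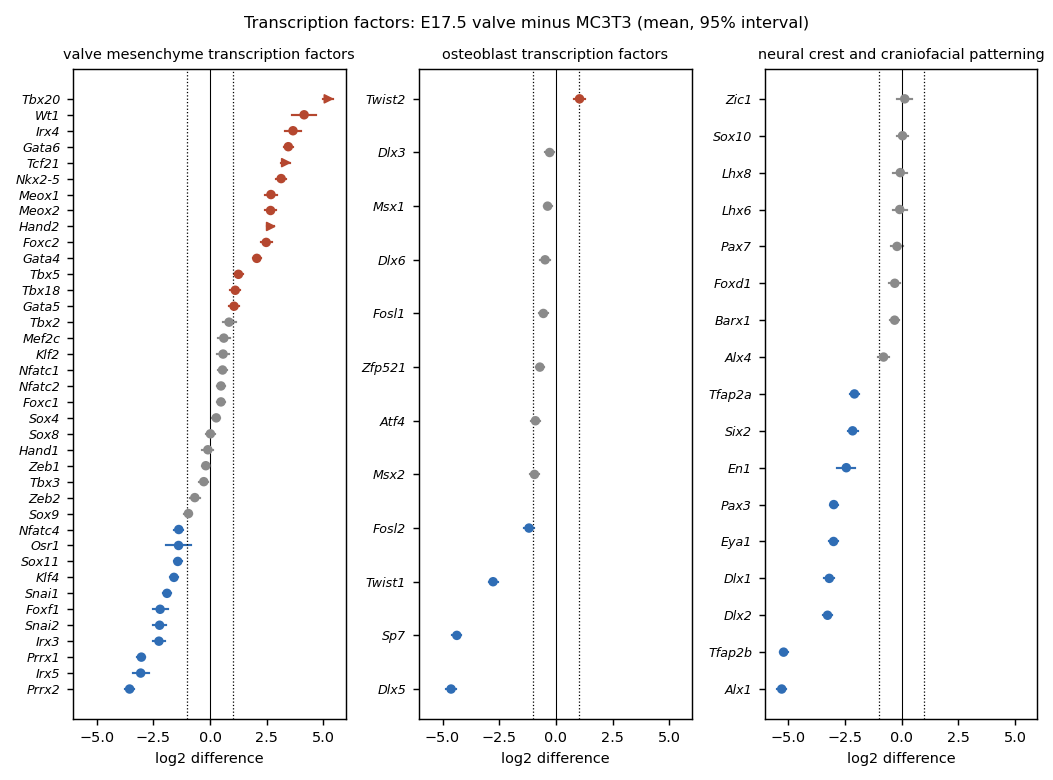
Difference E17.5 valve minus MC3T3 (x axis, log2) with its 95% interval for measured transcription factors listed for valve mesenchyme, for osteoblasts and for neural crest and face. The valve list also holds factors of heart muscle and epicardium. Red points were called higher in the valve, blue points higher in MC3T3 and grey points were not called; right-pointing triangles are lower bounds, and dotted lines mark 2-fold. The valve factors run from Prrx2 at -3.55 to Tbx20 at 5.21, while Dlx5 and Alx1 lie furthest to the left in the other panels, at -4.62 and -5.30.

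Genes of bone matrix and mineralization were higher in MC3T3 in 8 of 18 (median -0.86), and 7 were bounded within 2-fold. Behind Omd and Ibsp came Pth1r, the receptor for parathyroid hormone, at -1.10 and -1.31 in E17.5 valve against 1.79 and 1.75 in MC3T3 (-2.98 ± 0.09). Tnfrsf11b, osteoprotegerin, which blocks osteoclast formation, differed by -2.83 ± 0.28 and by -3.36 without E17.5 replicate 1, where it stood at 1.18 against 0.12 on replicate 2. Mgp, matrix Gla protein, an inhibitor of mineralization, was 2.84-fold higher in MC3T3 (-1.51 ± 0.09). Other bone genes were not called. Alpl, the tissue alkaline phosphatase, stood at 0.02 and -0.02 in E17.5 valve against 0.41 and 0.36 in MC3T3 (-0.39 ± 0.08). Sparc, osteonectin, differed by -0.74 ± 0.08, Dmp1 by -0.86 ± 0.08 (called with the median over its probe sets, -1.02), the osteoclast factor Tnfsf11 by -0.18 ± 0.08 and Mepe by -0.13 ± 0.12. Bglap and Spp1 were not analysed here. Of 11 osteoclast markers 9 were bounded within 2-fold, beside 75.5% of all genes. The collagen-cleaving cathepsin Ctsk was higher in MC3T3 (-2.28 ± 0.09) and the acid phosphatase Acp5 was higher in the valve (2.36 ± 0.26).

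Collagen genes of fibrils were mostly higher in the cell line, 8 of 11 against 1 (median -1.23). Col1a1 and Col1a2, the chains of type I collagen, stood at 0.53 and 0.56 and at 0.46 and 0.50 on the E17.5 arrays. On the MC3T3 arrays they stood at 2.53 and 2.64 and at 2.24 and 2.25, and on the E12.5 arrays at -0.82 and -0.95 and at -0.69 and -0.67. These values place E17.5 tissue between the E12.5 cushion and the cell line, with differences of -2.04 ± 0.08 (4.11-fold) and -1.76 ± 0.07 (3.4-fold) from MC3T3. The Col1a2 value is a mean over 3 probe sets that differed by -3.40, -1.10 and -0.79, the last not called. Col3a1, the type III collagen of pliable tissues, stood at 0.30 and 0.34 against 0.27 and 0.34 and differed by 0.01 ± 0.08, an interval of -0.17 to 0.19. Col11a1, which seeds thin fibrils in cartilage, was 29.1-fold higher in MC3T3 (-4.86 ± 0.09) and Col2a1, the collagen of cartilage, 7.06-fold (-2.82 ± 0.18). Col24a1 was 2.02-fold higher in the valve, a call lost without E17.5 replicate 1 or MC3T3 replicate 1. Of 20 genes for collagen processing 9 were higher in MC3T3 and 2 in the valve, among the former the procollagen enhancer Pcolce (-2.20 ± 0.08), the chaperone Serpinh1 (-2.10 ± 0.12), the hydroxylase subunit P4ha3 (-2.21 ± 0.09) and the crosslinking enzyme Lox (-1.30 ± 0.11). Loxl1, a lysyl oxidase of elastic fibres, was higher in the valve (1.92 ± 0.09).

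Of the 27 other collagens 10 were higher in the valve and 7 were higher in MC3T3. Col8a1 and Col8a2, short-chain collagens, and the fibril-associated Col16a1 and Col12a1 were higher in MC3T3, at -5.37 ± 0.08, -4.45 ± 0.15, -2.17 ± 0.08 and -2.13 ± 0.08. The 4 Col12a1 probe sets ran from -4.07 to -0.29, and 2 of them were called. Col14a1, which is also fibril-associated, was 20.1-fold higher in the valve (4.33 ± 0.10), and with it the basement membrane collagens Col4a1 (2.54 ± 0.08) and Col18a1 (2.27 ± 0.10) and the membrane collagen Col23a1 (2.68 ± 0.11). The endothelial markers moved the same way as the basement membrane genes, with the list medians given above.

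Elastic fibre genes were higher in the valve in 8 of 15 (median 1.06). Eln, tropoelastin, stood at 1.02 and 0.27 in E17.5 valve against -3.34 and -3.25 in MC3T3. Its difference was 3.94 ± 0.21 (15.4-fold, adjusted p = 1.68e-06), and 3.57 without E17.5 replicate 1. Beside Efemp1 stood the microfibril-associated Mfap4 (3.84 ± 0.08), Ltbp2, a binder of fibrillin and fibulins (3.07 ± 0.22), and Mfap5 and Ltbp3 were bounded within 2-fold (-0.43 ± 0.10 and -0.09 ± 0.08). Fbn1 was not analysed here.

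Small leucine-rich proteoglycans, which coat collagen fibrils, were higher in MC3T3 in 6 of 14 and in the valve in 1 (median -0.41). Fmod, fibromodulin, was 16.2-fold higher in MC3T3 (-4.02 ± 0.11) and Prelp 9.44-fold (-3.24 ± 0.12). Aspn, asporin, stood at 0.97 and 0.96 in E17.5 valve, at -4.23 and -4.73 in E12.5 cushion and at 3.16 and 3.24 in MC3T3. Ogn, osteoglycin, stood at 0.95 and 0.90, at -2.85 and -3.49 and at 2.95 and 3.04. Both lay in the order cushion, valve, cell line with no overlap, and E17.5 tissue was still 4.7-fold and 4.2-fold under MC3T3. Dcn, decorin, and Lum, lumican, differed from MC3T3 by 0.03 ± 0.08 and 0.13 ± 0.08, with intervals of -0.17 to 0.22 and -0.05 to 0.30. The Dcn value is the mean of 2 probe sets of opposite sign, at -0.34 ± 0.11 and 0.39 ± 0.13, neither called. Epyc was 2.42-fold higher in the valve, a call that was lost without E17.5 replicate 1 and under the equal-variance test.

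**Figure D4:**
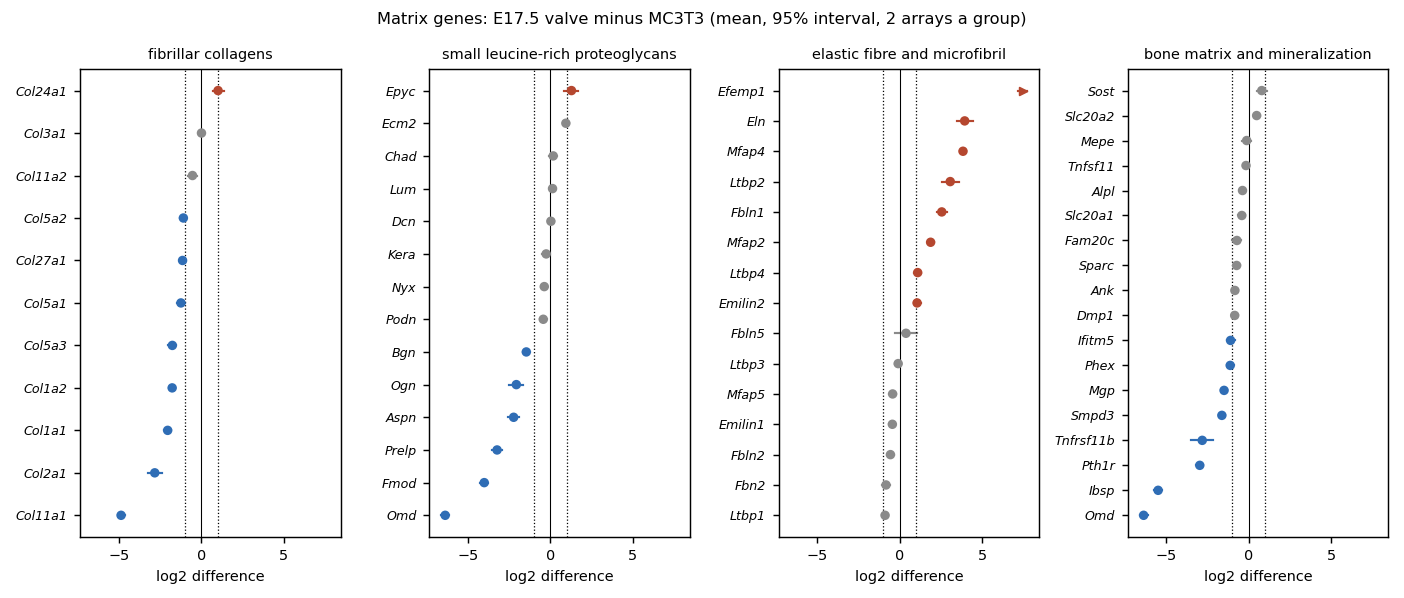
Difference E17.5 valve minus MC3T3 (x axis, log2) with its 95% interval for measured genes of fibrillar collagens, small leucine-rich proteoglycans, elastic fibres and bone matrix, coloured by call (red higher in valve, blue higher in MC3T3, grey not called), with dotted lines at 2-fold and a triangle for a lower bound. Col3a1, Dcn and Lum lie at 0.01, 0.03 (the mean of 2 probe sets of opposite sign) and 0.13, Eln at 3.94 and Omd at -6.39.

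Hyaluronan and large proteoglycan genes were higher in MC3T3 in 5 of 16, with 8 bounded within 2-fold. Cd44, a hyaluronan receptor, was 5.02-fold higher in MC3T3 (-2.33 ± 0.11) and Has2, the main hyaluronan synthase of cushions, 4.14-fold (-2.05 ± 0.20). Hapln1, the link protein, differed by -1.17 ± 0.18 and by -0.97 without MC3T3 replicate 2, which ended the call, as did the median over its probe sets. Vcan, versican, was 2.06-fold higher in the valve (1.05 ± 0.12), but its 8 probe sets ran from -0.17 to 2.50, and the call was lost without MC3T3 replicate 1 and with the median over probe sets. Among 12 glypicans, syndecans and their sulfatases 7 were higher in MC3T3, led by Sdc2 (-2.66 ± 0.09) and Gpc1 (-2.45 ± 0.12), and 2 in the valve. Those 2 were Sulf1, which trims heparan sulfate (at least 25-fold, with differences from 0.17 to 7.07 over its 3 probe sets), and Gpc3, a brake on embryonic growth (4.14 ± 0.10).

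Matricellular proteins, which sit in matrix and signal to cells, split 7 to the valve and 9 to MC3T3 of 22. Tnc, tenascin-C, was 7.77-fold higher in MC3T3 (-2.96 ± 0.13), with Ccn1 (-2.56 ± 0.09), Ccn5 (-2.56 ± 0.09) and Matn4 (-2.73 ± 0.11). Thbs4 (3.66 ± 0.14), the calcium-binding Smoc2 (3.46 ± 0.17), Tnxb (2.79 ± 0.12) and Tgfbi (2.38 ± 0.10) were higher in the valve. Postn, periostin, first cloned from this line and a mark of valve mesenchyme, stood at 0.54 and 0.49 in E17.5 valve against 0.79 and 0.81 in MC3T3. The difference was -0.28 ± 0.10, inside 2-fold (interval -0.52 to -0.04). Of 10 tendon genes 5 were higher in MC3T3 and 2, Col14a1 and Thbs4, in the valve, with Mkx, a homeobox factor of tendon, 28.1-fold higher in MC3T3 (-4.82 ± 0.10) and Scx, scleraxis, 2.35-fold (-1.23 ± 0.13). Tnmd, tenomodulin, a late tendon gene, differed by 0.08 ± 0.10. Of 19 cartilage genes 10 were bounded within 2-fold, 4 were higher in MC3T3 and 3 in the valve, among these Cytl1 (3.96 ± 0.09).

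Of 18 matrix metalloproteinases and inhibitors 8 were higher in MC3T3 and 1 in the valve. Mmp2, a gelatinase, was 5.36-fold higher in MC3T3 (-2.42 ± 0.08) and the inhibitor genes Timp1, Timp2 and Timp3 stood at -2.59 ± 0.09, -1.54 ± 0.08 and -1.52 ± 0.08. Mmp23 was 8.21-fold higher in the valve (3.04 ± 0.08). Of the aggrecan and versican proteases of the ADAMTS family, Adamts4 and Adamts5 were higher in MC3T3 (-2.08 ± 0.08 and -1.90 ± 0.08), and Adamts20 (3.47 ± 0.13), Adamts8 (2.82 ± 0.13) and Adamts15 (2.24 ± 0.16) in the valve. Among 9 serpins and plasminogen genes Serpinf1, an antiangiogenic factor of bone, was 22.9-fold higher in MC3T3 (-4.52 ± 0.09) and Serping1, the inhibitor of complement C1, 70.6-fold higher in the valve (6.14 ± 0.10). Of 11 complement genes 6 were higher in the valve and 2 in MC3T3. Those higher in the valve include C1qa (2.81) and C1qc (2.33), which are also on the macrophage list. The C1 protease genes were higher in MC3T3, C1ra by -4.41 ± 0.15 and C1s1 by -4.05 ± 0.16, while the complement regulators Cd59a (4.71 ± 0.23) and Cd55 (4.41 ± 0.09) were higher in the valve.

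Among signalling genes, BMP ligands and their inhibitors were unequal. Of 24 BMP and TGF-beta ligands and receptors 8 were higher in the valve, 3 in MC3T3 and 13 bounded within 2-fold (median 0.24). Bmp2, a ligand of AV myocardium and cushion, stood at -0.22 and -0.27 in E17.5 valve against -4.12 and -4.59 in MC3T3. That is 17.3-fold higher in the valve (4.11 ± 0.18, adjusted p = 5.94e-07), and Bmp6 was 7.47-fold higher (2.90 ± 0.21). Bmp4 was 2.81-fold higher in MC3T3 (-1.49 ± 0.10), with Inhba, an activin subunit (-1.40 ± 0.08), and Tgfb3 (-1.26 ± 0.08), whereas Tgfb2 differed by 0.42 ± 0.09. Inhba was called on 1 of its 2 probe sets (-2.38 and -0.43). The receptor Acvr1 differed by -0.18 ± 0.09 and the co-receptor Eng, which endothelium also carries, by 3.0 ± 0.08. Of 21 inhibitors and targets 5 were higher on each side. The secreted antagonists Fst, Chrdl1 (-4.68 ± 0.08) and Grem1 (-3.26 ± 0.10) were higher in MC3T3. The pseudoreceptor Bambi (3.67 ± 0.08) and the BMP targets Id1 (2.37 ± 0.08) and Smad7 (1.14 ± 0.08) were higher in the valve, and Smad6 differed by 0.63 ± 0.08. Id4 went with MC3T3 (-2.02 ± 0.09).

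Wnt genes split evenly, 5 of 26 ligands and inhibitors on each side and 15 bounded within 2-fold. Wnt10a (-4.43 ± 0.11) and Wnt6 (-2.11 ± 0.11) were higher in MC3T3 together with the agonist Rspo2 (-2.10 ± 0.09, on 1 of its 2 probe sets). Wnt2 (3.39 ± 0.16), the agonist Rspo1 (3.03 ± 0.19) and the secreted inhibitors Sfrp1 (2.97 ± 0.09) and Frzb (2.95 ± 0.21) were higher in the valve, while the inhibitor Sfrp2 was higher in MC3T3 (-1.41 ± 0.15). Of the frizzled receptors Fzd5, Fzd7 and Fzd2 were higher in MC3T3 (-2.0 ± 0.13, -1.60 ± 0.09 and -1.2 ± 0.13), and Fzd3, Fzd6 and Fzd4 in the valve (1.5 ± 0.07, 1.19 ± 0.08 and 1.18 ± 0.08).

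Of 15 Notch pathway genes 7 were higher in the valve and 1 in MC3T3 (median 0.87). The target gene Hey2 stood at 0.28 and 0.07 in E17.5 valve against -5.04 and -5.20 in MC3T3 (5.29 ± 0.10, 39.1-fold). Hey1 (2.96 ± 0.15), the feedback inhibitor Nrarp (2.73 ± 0.13) and the ligand Dll1 (2.16 ± 0.09) followed. The ligands Jag1 and Jag2 differed by -0.07 ± 0.14 and 0.12 ± 0.08, and the receptor Notch2 was higher in MC3T3 (-1.11 ± 0.09), a call lost when arrays were centred. Of the 2 Notch2 probe sets, at -1.88 and -0.335, only the first was called. Endothelium and heart muscle also carry Hey genes, and their marker lists moved the same way.

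Of 21 FGF pathway genes 7 were higher in the valve and 4 in MC3T3. The receptors Fgfr2 (-2.93 ± 0.08), Fgfr1 (-2.52 ± 0.10) and Fgfr3 (-1.26 ± 0.08, called on 1 of its 2 probe sets) were higher in MC3T3 with Fgf7. Dusp6, a phosphatase induced by FGF signals, was higher in the valve (1.84 ± 0.08). The intracellular family members Fgf12 (4.62 ± 0.13) and Fgf13 (at least 22.3-fold), which bind sodium channels in excitable cells, and the carrier Fgfbp1 (4.45 ± 0.22) were higher in the valve as well. In the PDGF and EGF pathways 3 of 15 genes were higher in MC3T3 and 1 in the valve. Pdgfc (-3.12 ± 0.12), the receptor Pdgfrb (-1.40 ± 0.11) and Pdgfa (-1.17 ± 0.12) were higher in MC3T3. Erbb3 was higher in the valve as a mean (1.67 ± 0.10), but its 2 probe sets differed by 3.34 and 0.01 and only the first was called. Nrg1 and Erbb2 differed by 0.02 ± 0.12 and -0.01 ± 0.09.

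Of 15 genes of the IGF axis 6 were higher in the valve and 2 in MC3T3. Igf2, the fetal growth factor, stood at 0.02 and 0.09 in E17.5 valve against -6.56 and -6.56 in MC3T3, at least 97.7-fold apart since 1 of its probe sets reached the minimum. The carriers Igfbp3 (5.40 ± 0.17), Igfbp5 (2.56 ± 0.09) and Igfbp6 (2.15 ± 0.14) were higher in the valve, but the Igfbp5 probe sets differed by 0.73 and 4.40 and the call was lost without the second, whose probes can match several transcripts. Pappa2 and the protease Htra1 (-1.44 ± 0.14) were higher in MC3T3, and Igf1 differed by 0.08 ± 0.10. Of 17 integrins 4 were higher in the valve and 2 in MC3T3, and of 15 cadherins again 4 and 2. Itga10, a collagen receptor of cartilage, was 19-fold higher in MC3T3 (-4.25 ± 0.08), Itga6, a laminin receptor, 17.2-fold higher in the valve (4.10 ± 0.10), and Cdh11, the cadherin of osteoblasts and mesenchyme, 2.32-fold higher in MC3T3. Of 19 chemokines and cytokines 12 were bounded within 2-fold, 4 were higher in the valve and 2 in MC3T3. Il33 was higher in the valve (4.82 ± 0.23) and Csf1, which sustains macrophages and osteoclasts, higher in MC3T3 (-1.57 ± 0.09).

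Most cell cycle genes lay within 2-fold of each other in the groups. Of 36 DNA replication genes 34 had intervals inside 2-fold and 1, Ung, was called (1.39 ± 0.09, higher in the valve). Of 27 mitosis genes 25 had such intervals, with Bub1 higher in MC3T3 (-1.29 ± 0.11, on 1 of its 2 probe sets) and Ube2c in the valve (1.2 ± 0.09). Mki67 stood at 0.61 and 0.49 in E17.5 valve against 1.22 and 1.2 in MC3T3, a difference of -0.66 ± 0.09. The medians of both lists, -0.27 and -0.23, lay near the -0.15 of all genes, and the shares bounded within 2-fold stand beside 75.5% over all genes.

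Of 19 cell cycle inhibitors and p53 targets 9 were higher in MC3T3 and 3 in the valve (median -0.72). Cdkn1a, p21, was 6.51-fold higher in MC3T3 (-2.70 ± 0.11), and the p53 targets Zmat3 (-2.31 ± 0.09), Trp53inp1 (-2.19 ± 0.15) and Sesn2 (-2.07 ± 0.09) went with it. Cdkn1c, p57, an imprinted inhibitor, stood at least 56.2-fold higher in the valve, with 1 MC3T3 array at the minimum. Pmaip1, a p53-induced death gene (2.10 ± 0.10), and Cdkn2d (1.27 ± 0.09) were higher in the valve too. Cdkn2a differed by -0.17 ± 0.11 and Cdkn2b by 0.51 ± 0.12.

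The list with the lowest median was that of the ATF4 stress response, the genes for amino acid supply that ATF4 switches on when amino acids run short or proteins misfold. Of 21 measured genes 18 were higher in MC3T3 and 1 in the valve (median -2.24). Asns, asparagine synthetase, stood at -0.60 and -0.74 in E17.5 valve against 3.42 and 3.40 in MC3T3. Chac1, which breaks down glutathione, stood at -0.06 and 0.06 against 3.96 and 3.97. The differences were -4.08 ± 0.12 (16.9-fold, adjusted p = 6.48e-08) and -3.97 ± 0.11 (15.7-fold, adjusted p = 4.76e-08). Trib3, a feedback inhibitor of ATF4, differed by -3.82 ± 0.33 and Slc7a5, a transporter of large amino acids, by -3.39 ± 0.09. Atf3 was the member higher in the valve (1.17 ± 0.10), and Vldlr differed by -0.34 ± 0.15. Atf4 itself differed by -0.90, under the 2-fold threshold.

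The upstream windows of 4 of these genes are shown because they hold letters of the DNA element that ATF4 is known to bind with C/EBP partners, and that of Hmgcs1 for a sterol element. The letters TGATGNAA were searched on both strands in windows from 250 bases before to 50 bases after each start (RefSeq, GRCm38.p6). They occurred for 7 of the 20 genes of the list with a window (35%) and for 4.51% of 27025 genes overall. The 7 were Asns, Chac1, Trib3, Nupr1, Slc7a11, Atf3 and Vldlr. They include genes higher in MC3T3, the 1 higher in the valve and 1 of the 2 not called. For sterol genes the letters TCACNCCAC, a sterol regulatory element, were searched in the same way and occurred for 1 of 18 genes with a window (5.56%), Hmgcs1, against 1.44% overall. Neither string contains the other. A match describes the letters and shows no binding. Capitals mark the match, on either strand, in the windows of Asns (chr6:7693160-7693459, minus strand), Chac1 (chr2:119350992-119351291, plus strand), Trib3 (chr2:152344011-152344310, minus strand), Nupr1 (chr7:126625421-126625720, minus strand) and Hmgcs1 (chr13:119690101-119690400, plus strand), each written 5′ to 3′ along its gene.
Asns: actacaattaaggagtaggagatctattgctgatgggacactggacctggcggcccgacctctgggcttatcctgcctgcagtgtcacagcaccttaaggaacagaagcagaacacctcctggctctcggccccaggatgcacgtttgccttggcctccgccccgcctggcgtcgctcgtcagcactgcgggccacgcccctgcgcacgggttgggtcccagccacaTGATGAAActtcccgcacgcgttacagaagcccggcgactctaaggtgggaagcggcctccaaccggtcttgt
Chac1: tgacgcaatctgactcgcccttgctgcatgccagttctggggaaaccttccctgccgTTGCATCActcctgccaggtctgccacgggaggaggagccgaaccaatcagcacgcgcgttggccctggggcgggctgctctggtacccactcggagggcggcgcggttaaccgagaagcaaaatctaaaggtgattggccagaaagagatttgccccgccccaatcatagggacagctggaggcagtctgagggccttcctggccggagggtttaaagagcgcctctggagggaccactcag
Trib3: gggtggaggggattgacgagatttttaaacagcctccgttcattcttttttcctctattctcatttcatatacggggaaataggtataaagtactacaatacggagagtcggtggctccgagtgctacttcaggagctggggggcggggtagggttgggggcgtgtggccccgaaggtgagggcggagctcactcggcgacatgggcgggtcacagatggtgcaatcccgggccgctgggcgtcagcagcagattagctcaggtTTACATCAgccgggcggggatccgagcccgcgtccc
Nupr1: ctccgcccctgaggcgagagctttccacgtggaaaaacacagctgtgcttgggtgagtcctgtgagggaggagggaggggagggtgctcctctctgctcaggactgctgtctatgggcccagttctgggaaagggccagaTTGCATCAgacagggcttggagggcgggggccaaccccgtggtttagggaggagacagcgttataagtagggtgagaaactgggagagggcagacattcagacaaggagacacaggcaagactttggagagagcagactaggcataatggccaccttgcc
Hmgcs1: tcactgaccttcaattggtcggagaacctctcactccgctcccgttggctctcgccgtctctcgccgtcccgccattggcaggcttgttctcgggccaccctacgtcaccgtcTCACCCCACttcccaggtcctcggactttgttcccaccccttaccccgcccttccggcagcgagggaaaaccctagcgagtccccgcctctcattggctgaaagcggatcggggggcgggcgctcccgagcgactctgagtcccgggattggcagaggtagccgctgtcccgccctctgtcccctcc
The first base of the match lay 23 bases before the start of Asns, 193 before that of Chac1, 110 before that of Nupr1, 137 before that of Hmgcs1 and 14 after that of Trib3. Nupr1, a stress-induced nuclear protein gene, differed by -3.03 and Slc7a11, the cystine transporter, by -1.46, both chosen after their values were seen.

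Genes for cholesterol and fatty acid synthesis, which SREBP factors control, were higher in MC3T3 in 19 of 23 (median -1.44). Cyp51, lanosterol demethylase, stood at -0.04 and -0.28 in E17.5 valve against 2.90 and 3.0 in MC3T3. Sqle, squalene epoxidase, stood at -0.26 and -0.58 against 2.43 and 2.42. Both MC3T3 arrays were above both valve arrays, by 8.65-fold (-3.11 ± 0.11) and 7.18-fold (-2.84 ± 0.13). Scd1, the desaturase (-2.66 ± 0.10), and Msmo1 (-2.28 ± 0.11) followed. Pmvk (-0.02 ± 0.10) and Acly (-0.82 ± 0.07) were bounded within 2-fold, Acly only as a mean. Its 6 probe sets ran from -1.58 to -0.20, and 3 of them were called higher in MC3T3. Hmgcs1, whose window is printed above, differed by -1.64.

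**Figure D5:**
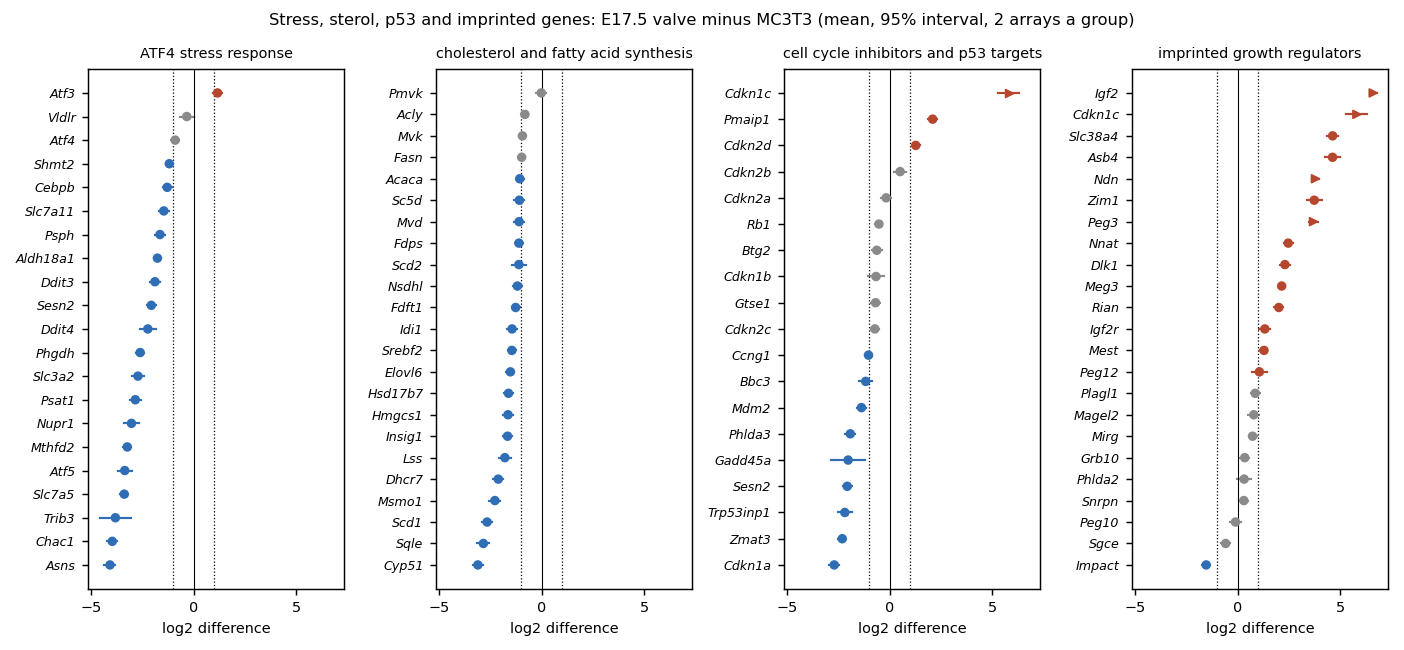
Difference E17.5 valve minus MC3T3 (x axis, log2) with its 95% interval for measured genes of the ATF4 stress response, of cholesterol and fatty acid synthesis, of cell cycle inhibition and p53, and for imprinted genes, coloured by call as in the plots of regulators and matrix, with triangles for lower bounds and dotted lines at 2-fold. Asns lies at -4.08, Cyp51 at -3.11 and Cdkn1a at -2.70 on the MC3T3 side, and Igf2 at 6.61 and Cdkn1c at 5.81 on the valve side.

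Imprinted genes of embryonic growth were higher in the valve in 14 of 23 and in MC3T3 in 1 (median 1.33). After Igf2 and Cdkn1c came Slc38a4, an amino acid transporter, at -0.09 and -0.23 in E17.5 valve against -4.91 and -4.67 in MC3T3 (4.63 ± 0.11). Asb4, an ubiquitin ligase subunit of embryonic vessels, differed by 4.63 ± 0.16. Impact, a regulator of the kinase GCN2 that acts above ATF4, was 2.9-fold higher in MC3T3 (-1.54 ± 0.08), and Peg10 (-0.11 ± 0.11) and Snrpn (0.30 ± 0.09) were bounded within 2-fold. H19 was not analysed here.

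Of 21 glycolysis and hypoxia genes 9 were higher in the valve (median 0.79), led by the peptide hormone Adm (3.56 ± 0.16), the oxygen sensor Egln3 (3.24 ± 0.10), Pdk1 (1.94 ± 0.10) and Bnip3 (1.74 ± 0.08). Of 40 oxidative phosphorylation genes 14 were higher (median 0.76). The 3 largest, Cox7a1 (at least 127-fold), Cox8b (6.08 ± 0.12) and Cox6a2 (3.98 ± 0.09), encode the subunits of cytochrome oxidase used by heart and skeletal muscle, and cardiomyocyte markers moved with them. Cyc1, cytochrome c1, was 3.05-fold higher (1.61 ± 0.08), and Uqcrq (0.04 ± 0.08) was bounded within 2-fold as a mean. The 4 Uqcrq probe sets ran from -0.70 to 1.24, and 1 of them was called higher in the valve. Ndufb8 had 1 probe set called in each direction.

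Immediate early genes, induced by serum and by handling, were higher in MC3T3 in 8 of 22 and in the valve in 3. Myc was 6.43-fold higher in MC3T3 (-2.68 ± 0.08) and Egr2 6.33-fold (-2.66 ± 0.08), while Dusp1 (1.78 ± 0.08) and Ccn2 (1.67 ± 0.16) were higher in the valve and Fos differed by -0.08 ± 0.16. Of 24 interferon and MHC class I genes 14 were bounded within 2-fold, 5 were higher in MC3T3 and 4 in the valve. The antigen processing genes Tap2 (-2.35 ± 0.12), Psmb9 (-1.99 ± 0.12), Psmb8 (-1.55 ± 0.08) and B2m (-1.23 ± 0.08) were higher in MC3T3, and the interferon-induced Rsad2 (3.39 ± 0.25) and Oasl2 (1.98 ± 0.13) were higher in the valve. Psmb8 was called on 1 of its 2 probe sets (-2.63 and -0.47). Of the sex-linked transcripts Xist, made by the inactive X chromosome, stood at least 56.8-fold higher in the valve. The Y-linked Eif2s3y (-2.09 ± 0.23), Kdm5d (-1.33 ± 0.16) and Uty (-1.12 ± 0.23) were higher in MC3T3, the Uty call being lost without E17.5 replicate 1, after centring of the arrays and under the equal-variance test. The Kdm5d call was lost with the median over its 3 probe sets (-0.78), of which 1 was called. The sources used here do not give the sexes in the pools.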

How the data were processed

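Pooled RNA of the 2 embryonic tissues and of MC3T3-E1 cells was hybridised to Affymetrix Mouse Genome 430 2.0 arrays, 2 per group, per the labels' protocols. The deposited values are ratios: per the deposited experiment description and the submitters' processing notes, the authors used RMA with quantile normalization in GeneSpring GX 7.3 and referenced each gene to a median. No source used here states if cell line and tissue arrays went through 1 normalization, so a common scale of both groups is assumed. The labels name 2 amplification kits without saying which samples each was used for, and a kit that went with a group cannot be told apart from it. The description also calls the array MOE430A in 1 place, while the labels name the 430 2.0. In the file every one of 45101 probe sets has a median ratio of 1 over the 4 valve and cushion arrays (tolerance 1e-05), with a minimum ratio of 0.01. Ratios hold no intensity, so background and level could not be judged.

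Deposited ratios were taken to log2. Left out were 64 control probe sets, 932 with several genes and 9160 with no gene in the annotation given. The other 34945 were averaged to 18193 genes, of which 18145 are in the RefSeq gene table and 9183 have 1 probe set. A called gene can therefore hold probe sets that were not called. limma 3.58.1 (R 4.3.3) fitted lmFit and eBayes over all 6 arrays as 3 groups (3 residual and 4.57 prior degrees of freedom), and p-values were adjusted over all genes. Tables were joined with pandas 2.3.3 in python 3.11.15. Genes were called at an adjusted p below 0.05 and 2-fold. On simulated data for E17.5 valve against MC3T3 over 18193 genes, 50 of 50 genes changed by 8-fold, 98 of 100 by 3-fold and 0 of 50 by 1.5-fold were called.

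Members and the 51 gene lists (1005 genes, 939 measured) were chosen with earlier results of these data known. Genes were named by rule. First came the 12 largest called differences each way without a value at the minimum and with E17.5 and MC3T3 arrays that do not overlap. Next came the 8 highest lower bounds among genes with a probe set at the minimum on both MC3T3 arrays. Added were up to 4 called members each way and up to 2 bounded within 2-fold per list, and a list of fixed genes. Scaling, thresholds, variance model, arrays and handling of probe sets were varied, 1 alternative leaving out probe sets open to cross-hybridization (suffix _x_at or _s_at). Arrays were not re-read from scanner output, and the text description of the experiment holds no measured values.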

Additional observations from a re-analysis of the deposited data

Results flagged for a closer look

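Of 72 genes named as the largest differences, the highest bounds or the fixed genes, 31 also differed between E17.5 valve and E12.5 cushion by the same rule (adjusted p from limma below 0.05 and 2-fold), where 6.51% of all genes were called. The 72 were picked for differences that use the same E17.5 arrays, or come from a fixed list. The share among them is therefore no test of stage and cannot be weighed against that of all genes. The difference from MC3T3 therefore depends on the valve stage for these genes. Values below are E17.5 minus E12.5 on the log2 scale with 2 arrays a group, and all are higher at E17.5 unless negative.

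Matrix genes were Aspn (5.45), Ogn (4.09), Efemp1 (2.04), Dpt (1.90), Lox (1.75), Dcn (1.60), Col1a1 (1.44), Postn (1.41), Col1a2 (1.16), Mgp (1.11) and Eln (1.02). Going the other way were the link protein gene Hapln1 (-2.60), Has2 (-1.14) and the regulators Twist1 (-3.03), Smad6 (-1.20), Sox9 (-1.07) and Msx2 (-1.06). Heart and muscle genes were Casq2 (2.71), Tecrl (1.65), Nppa (1.64), Pln (1.15) and Myoz2 (1.08). The others were Alb (3.58), Gpm6a (2.40), Meox2 (2.28), Mlf1 (2.07), Strip2 (1.71), Lpl (1.60), Mki67 (1.38), Pappa2 (1.34) and Perp (1.23). Alb rests on E17.5 arrays that stand at 2.57 and 0.55.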

How the results depend on the processing

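No named gene that was called changed direction under the alternatives run. Without a fold threshold 3880 genes passed as higher in the valve, 7062 as higher in MC3T3, 9740 between the stages and 759 list members, against 1780, 1445, 1185 and 481. At 4-fold these were 881, 352, 154 and 283. With each probe set as its own item, of which there are more than genes, 3205 and 3255 were called, 25328 were bounded within 2-fold and 3076 differed between the stages. Leaving out 1 array at a time, the lone array of a group being assumed to vary like the other groups, gave 1711 to 1872 higher in the valve, 1366 to 1526 higher in MC3T3, 13126 to 13878 bounded, 1110 to 1318 between the stages and 467 to 488 list members. Centring each array on its median moved the all-gene median from -0.15 to -0.03 and gave 1972 and 1156, 63% of calls higher in the valve against 55.2%. Deviations of same-numbered arrays correlated at 0.15 (E12.5 and E17.5), 0.0582 (E12.5 and MC3T3) and 0.0233 (E17.5 and MC3T3) over 18193 genes. With 2 arrays a group these values cannot settle whether same-numbered arrays shared a batch, and the main fit used no pairing. The fit with the replicate number as a block gave 1792 and 1445, and it changed no call among 382 named genes. Of 280 named genes called, 256 kept the call in each setting run for them that left the thresholds as they were. Leaving out genes at the minimum could be run for 358 of 382 named genes, and leaving out probe sets open to cross-hybridization for 379. Those that lost it with the equal-variance test include Alb, Ttr, Fgg and Gdf10, and with centring Plau, Serpinb6a and Notch2. The causes were not tested. Changes under 2-fold are not called by construction, and without intensities neither the level of a transcript nor its height above background can be read.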

Other observations

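Mtap, an enzyme of methionine salvage, differed by 5.76 on its 4 probe sets while its measured neighbours on chromosome 4 were not called: Ifna4 at -0.44, Ifna1 at -0.14, Cdkn2a at -0.17, Cdkn2b at 0.51 and Dmrta1 at 0.42. This gene and the runs that follow were chosen after their values were seen.

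Some called genes lay in runs of 3 measured neighbours that differed at least 4-fold in the same direction. Higher in MC3T3 were Aspn, Omd and Ogn on chromosome 13 (-2.23, -6.39 and -2.07), which encode leucine-rich proteoglycans, and Irx3, Crnde and Irx5 on chromosome 8 (-2.26, -2.41 and -3.06). Higher in the valve were the imprinted Dlk1, Meg3 and Rian on chromosome 12 (2.31, 2.15 and 2.01). On chromosome 6 stood Ldhb, a lactate dehydrogenase subunit, with the potassium channel subunits Kcnj8 and Abcc9 (6.22, 4.23 and 5.95). The fibrinogen genes Fgg, Fga and Fgb on chromosome 3 (4.44, 3.74 and 2.90) belong with the liver transcripts that were higher on E17.5 replicate 1.

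By chromosome the median difference ran from -0.22 to -0.07. On the X chromosome 14.4% of 618 genes were higher in the valve, against 9.78% over all genes.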
